A study of Homo sapiens with 12 samples.

Results

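The cholesterol and fatty acid synthesis genes were followed as 30 named genes of the 58174 gene identifiers measured in glioblastoma cells that were sensitive or resistant to temozolomide (TMZ), an alkylating drug. They comprised 18 sterol enzymes (7 of the mevalonate arm and 11 of the sterol arm), 5 genes of control and transport, and 7 genes of the fatty acid branch. The members were listed by symbol from knowledge of the pathway, with earlier results of these data known, and each symbol was found as 1 Ensembl identifier in the tables of both cell lines. All 30 passed the filter on low values in both lines, which kept genes of at least 1 TPM (a transcript level scaled to transcript length and to the library total) in at least 3 of the 6 libraries of a line.

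Messenger RNA had been sequenced from U87 (U-87 MG) and U118 (U-118 MG), established human glioblastoma cell lines, in 4 groups of 3 libraries each, 12 in all: U87 sensitive, U87 resistant, U118 sensitive and U118 resistant. The resistant lines were raised by continuous induction with TMZ at 50 µM, and no dose is stated for the sensitive cells. The study names the same cells control and aggregation cells. By its text the cells of both lines were sorted for the absence of the surface markers CD133 and CD15, and serum with BMP2 was used before, throughout and following TMZ exposure, in which the aggregations formed. Aggregation cells were also moved to serum-free stem cell medium with EGF, FGF2 and B27 in other assays, and the text does not say in so many words which of these cells were sequenced. Growth as aggregates and TMZ exposure cannot be told apart here. The labels give replicate numbers only and do not say that the libraries came from separate cultures, so each p-value measures the spread between these libraries, which may be technical.

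Cells make cholesterol from acetyl-CoA: the mevalonate arm builds the isoprenoid farnesyl diphosphate, and the sterol arm joins a pair of these into squalene, closes the rings and trims the product to cholesterol. Fatty acids start from the same acetyl-CoA, which is carboxylated, extended to palmitate, elongated and desaturated. Both branches are switched on by the SREBP transcription factors, which SCAP carries out of the endoplasmic reticulum when membrane sterol is low and which INSIG proteins hold back when it is high. Glioblastoma is known for its demand for cholesterol and for desaturated fatty acids.

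The promoters of the members were searched for letters that transcription factors bind. The 250 bases before each RefSeq start (GRCh38.p14) were searched on both strands for TCACNCCAC, a core form of the sterol regulatory element that SREBP binds, for CCAAT, bound by NF-Y, and for GGGCGG, the GC box bound by Sp1. Entries existed for 26 members, with 35 start windows, and 4 members (ACAT2, FASN, FDFT1 and SQLE) had none. CCAAT was present in 65.7% of the members' windows against 32.0% of the 35114 windows of all genes (32.7% of protein-coding ones). GGGCGG was present in 88.6% of the members' windows against 42.6% of all and 53.7% of protein-coding windows. TCACNCCAC was found before 1 member, SREBF2, where 0.883% of all windows held it. Only the TCACNCCAC form of the sterol regulatory element was searched, so a member without a match may hold another form. A match describes letters in a window and is not a measured binding site. The members' CCAAT and GC matches were shared by genes that rose, fell or did not pass a test below. The following stretches were cut to end just before the annotated gene. SREBF2 is shown because it alone held a TCACNCCAC match. SCD and NSDHL are shown because they were the members that passed the test in both lines, and they were chosen after their values were seen. SCD passed in the same direction and NSDHL in opposite directions. Capitals mark TCACNCCAC and CCAAT on either strand, so that ATTGG is CCAAT read on the other strand.
SREBF2, chr22:41832855-41833078, plus strand, 224 bases, within the antisense gene SREBF2-AS1: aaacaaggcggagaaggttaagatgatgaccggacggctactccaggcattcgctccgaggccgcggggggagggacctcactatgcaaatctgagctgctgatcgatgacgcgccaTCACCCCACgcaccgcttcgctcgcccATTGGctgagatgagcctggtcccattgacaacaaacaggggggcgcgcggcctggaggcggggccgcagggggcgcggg
SCD, chr10:100346983-100347123, plus strand, 141 bases: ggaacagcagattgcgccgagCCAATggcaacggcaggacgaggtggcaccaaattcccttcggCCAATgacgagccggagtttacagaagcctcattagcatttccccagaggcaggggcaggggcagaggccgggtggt
NSDHL, chrX:152830813-152830966, plus strand, 154 bases: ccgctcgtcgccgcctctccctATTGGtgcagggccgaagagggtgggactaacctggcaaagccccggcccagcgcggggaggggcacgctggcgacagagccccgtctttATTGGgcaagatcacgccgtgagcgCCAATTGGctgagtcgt
The SREBF2 stretch held the TCACNCCAC match 133 bases before the start and a CCAAT letter run 106 bases before it. The SCD stretch held 2 CCAAT matches and the NSDHL stretch 4, of which a pair overlapped.

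Several properties of the libraries bear on every value below. The share of TPM from mitochondrially encoded genes ran from 12.9% to 16.9% in U87 sensitive, 22.2% to 23.7% in U87 resistant, 7.42% to 19.7% in U118 sensitive and 13.2% to 29.9% in U118 resistant libraries, and since TPM sum to a constant this lowers the room for all other genes. The median log2 change over all genes tested was -0.24 in U87 and -0.52 in U118, so changes are also given after median-ratio scaling, which sets the typical gene at no change. U118 resistant replicate 1 differed from replicates 2 and 3: it held the highest value of its group for 76.4% of all genes tested and for 19 of the 30 members. It had 15193 genes at 1 TPM or more, against 13270 and 13545 in replicates 2 and 3 and 15129 to 15290 in U118 sensitive libraries. Its mitochondrial share was 13.2%, against 29.9% and 26.1% in replicates 2 and 3. Why these libraries differ was not tested. U87 sensitive replicate 2 held the highest value of its group for 51.2% of all genes tested and for 13 members. The 3 libraries labelled U118 resistant ranked genes more like the U87 libraries (Spearman's rho across 16382 genes, 0.895 to 0.913) than like U118 sensitive (0.808 to 0.839). Across the 30 members alone rho was 0.736 to 0.864 with U87 and 0.627 to 0.786 with U118 sensitive, while 21 of the 30 members had a mean level nearer to U118 sensitive than to U87 sensitive. Genes are not independent replicates, and these rho values are descriptions. The labels were kept, and each U118 change below is a change between libraries labelled so. Of the 8 glioblastoma line markers, VIM and CD44 were high in all libraries while GFAP, S100B and SOX2 stayed under 1 TPM in all. CD44, CHI3L1 and NES passed the adjusted p in both lines. Their log2 changes were 0.34, -0.75 and 0.51 in U87 and -0.93, 0.84 and 0.98 in U118. The differences between the lines were -1.28 for CD44 and 1.59 for CHI3L1 (limma, adjusted p = 0.00179 and 0.00348). Except for CHI3L1 in U87, these changes within a line lost the adjusted p in some fits that left out a library. VIM passed in neither line, and OLIG2, tested in U87 alone, did not pass there. Of the 5 macrophage or microglia markers, the defining PTPRC and AIF1 were at or near 0, and only CD68, a lysosomal protein gene, passed the filter. CD68 made up nearly all of that list's sum, which was 285 to 338 TPM in U87 sensitive, 201 to 241 in U87 resistant, 171 to 317 in U118 sensitive and 298 to 380 in U118 resistant libraries. CD68 fell in U87 (log2 change -0.48, adjusted p = 0.00836) and had a change of 0.60 in U118 (adjusted p = 0.0843; 1.16 and called higher after median-ratio scaling), and the difference between the lines was 1.08 (adjusted p = 0.0103). The 4 endothelial markers summed to 3.15 to 3.71 TPM in U87 sensitive and 1.78 to 2.39 in U87 resistant, and to 2.14 to 2.29 TPM in U118 sensitive and 0.466 to 0.730 in U118 resistant libraries. Only KDR of these was tested. It fell by adjusted p in U87 (log2 change -0.89) and was called lower in U118 (-1.07). In U118 KDR met the filter on low values only through the sensitive libraries, so its call there was tied to its direction. The 4 fibroblast or mural markers (DCN, LUM, THY1 and PDGFRB) summed to 5.51 to 7.36 TPM in U87 sensitive and 19.5 to 24.1 in U87 resistant, and to 298 to 536 TPM in U118 sensitive and 64.4 to 117 in U118 resistant libraries. The fibroblast or mural markers moved with the phenotype in both lines, in opposite directions. The part of these markers, of KDR, of CD68 and of the glioblastoma line markers in the results was not tested. In bulk RNA, fewer cells of a type and less RNA per cell cannot be told apart.

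**Figure D1:**
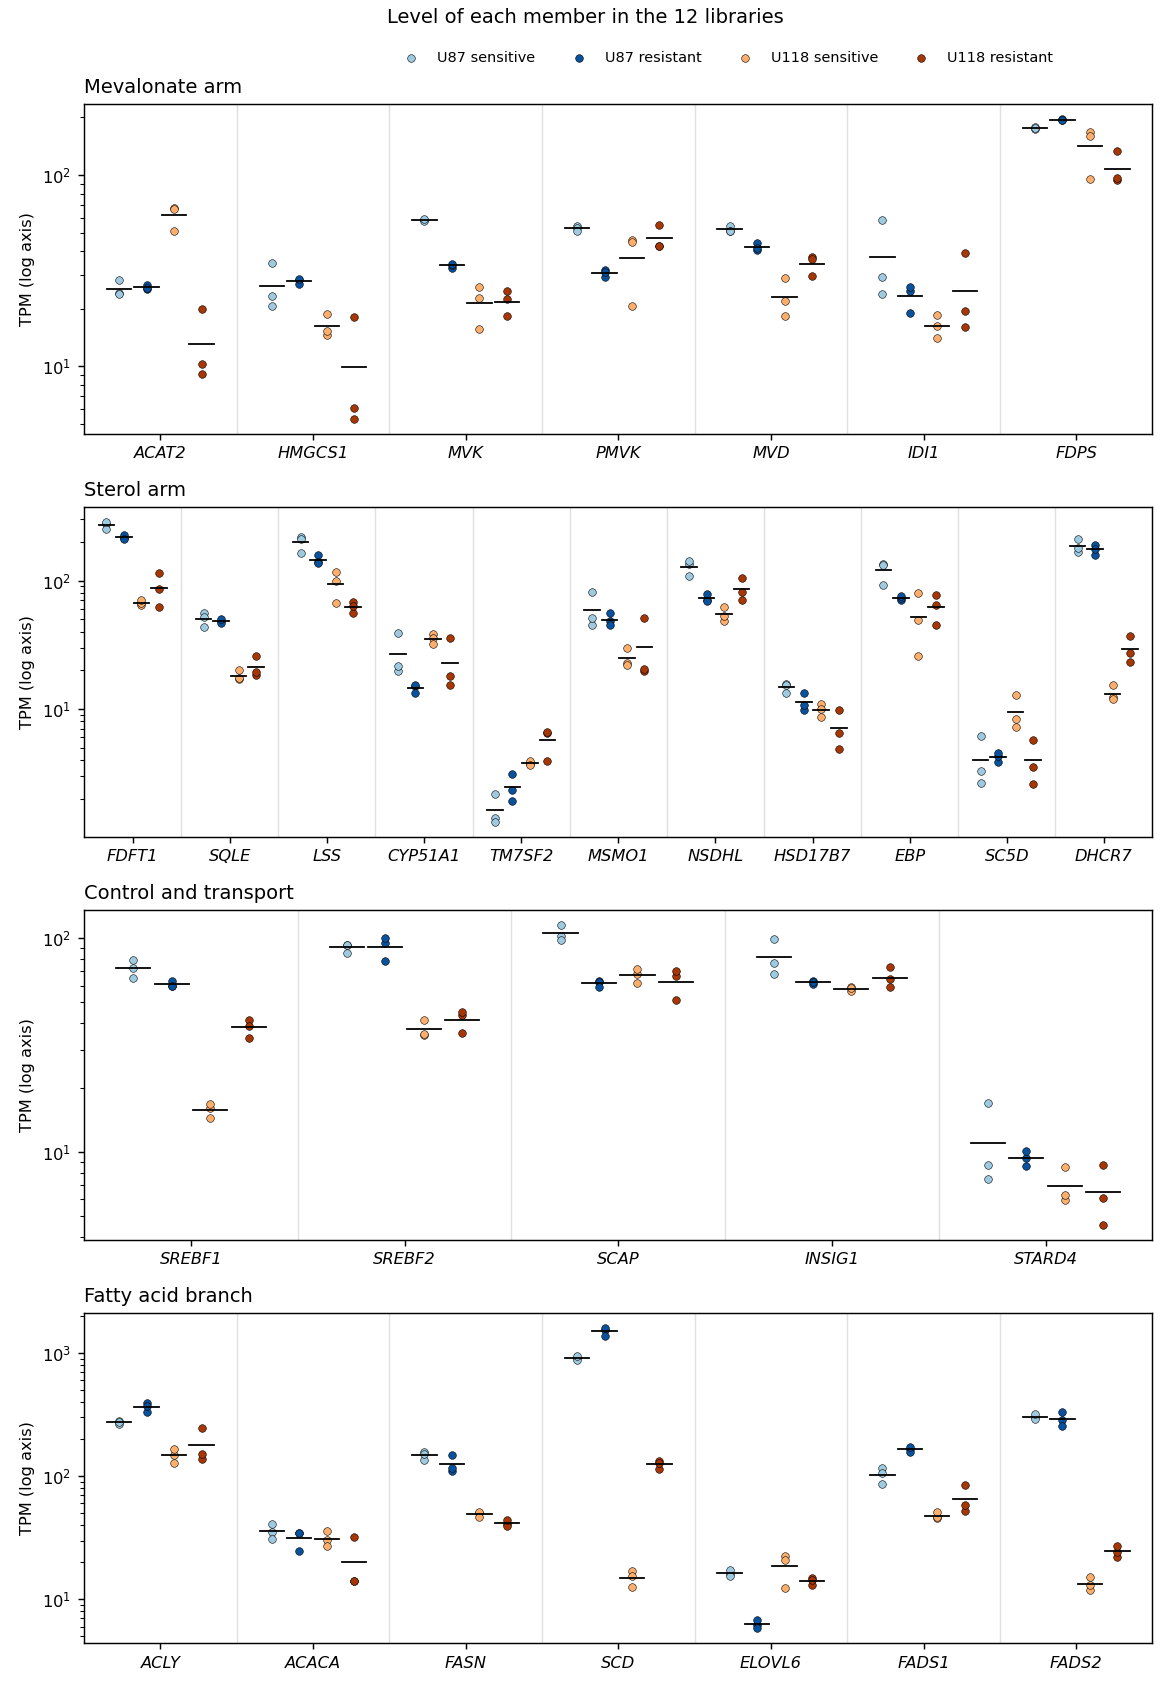
TPM on a log axis for the 30 members in the 12 libraries, in panels by role; each point is a library, colours give line and phenotype, and the bars are means of 3 libraries. SCD is the highest member in both U87 groups, and in U118 it lies at 12.7 to 16.9 TPM in sensitive and 114 to 132 TPM in resistant libraries.

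SCD, the stearoyl-CoA desaturase that makes oleate from stearate, was the most abundant member in U87 and rose in the resistant cells of both lines. In U87 its level was 916, 876 and 947 TPM in the 3 sensitive libraries and 1548, 1379 and 1586 TPM in the 3 resistant ones. The groups did not overlap, and the means were 913 ± 35.9 and 1504 ± 110 TPM (SD, n = 3 each), a ratio of 1.65. The log2 change of TPM + 1 was 0.72 (SE 0.07, limma, adjusted p = 0.000491). In U118 the level was 12.7, 16.9 and 15.4 TPM in sensitive and 132, 114 and 127 TPM in resistant libraries, an 8.30-fold ratio of the means. Every resistant library lay far above every sensitive one (log2 change 2.98, SE 0.21, adjusted p = 6.27e-06). SCD made up 50.6% to 51.2% of the summed TPM of the fatty acid branch in U87 sensitive libraries and 58.9% to 62.4% in U87 resistant ones. In U118 these shares were 3.92% to 5.07% and 23.0% to 29.2%. A pseudogene of SCD, SCDP1, reached at most 0.614 TPM in any library.

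In U87, 1 of the 30 members was called, that is, it had a Benjamini-Hochberg adjusted p under 0.05 over all genes and a log2 change of at least 1: ELOVL6, lower. Of the 13845 genes tested in U87, 3.03% were called higher and 7.79% lower. Beside these shares, 0 of 30 higher and 1 of 30 lower are counts too small to be read as a difference. By adjusted p alone 3 members rose and 10 fell, against 9.43% higher and 29.7% lower of all genes. After median-ratio scaling, 4.79% of genes were called higher and 3.92% lower, and by adjusted p alone 15.9% and 17.1%. ELOVL6 was then still the only member called, and by adjusted p alone 4 members rose and 6 fell.

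In U118, 3 members were called higher (SCD, SREBF1 and DHCR7) and 2 lower (ACAT2 and SC5D), where 8.64% of the 15527 genes tested were called higher and 26.6% lower. By adjusted p alone, 5 members rose and 2 fell, against 12.2% and 39.1% of all genes. After median-ratio scaling 15.2% of genes were called higher and 12.9% lower, and 24.3% and 24.5% passed the adjusted p in each direction. On that scale 7 members were called higher (SCD, SREBF1, DHCR7, FADS2, NSDHL, MVD and IDI1) and 1 lower (ACAT2), and 15 rose and 1 fell by adjusted p alone. No member was called in the same direction in both lines.

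**Figure D2:**
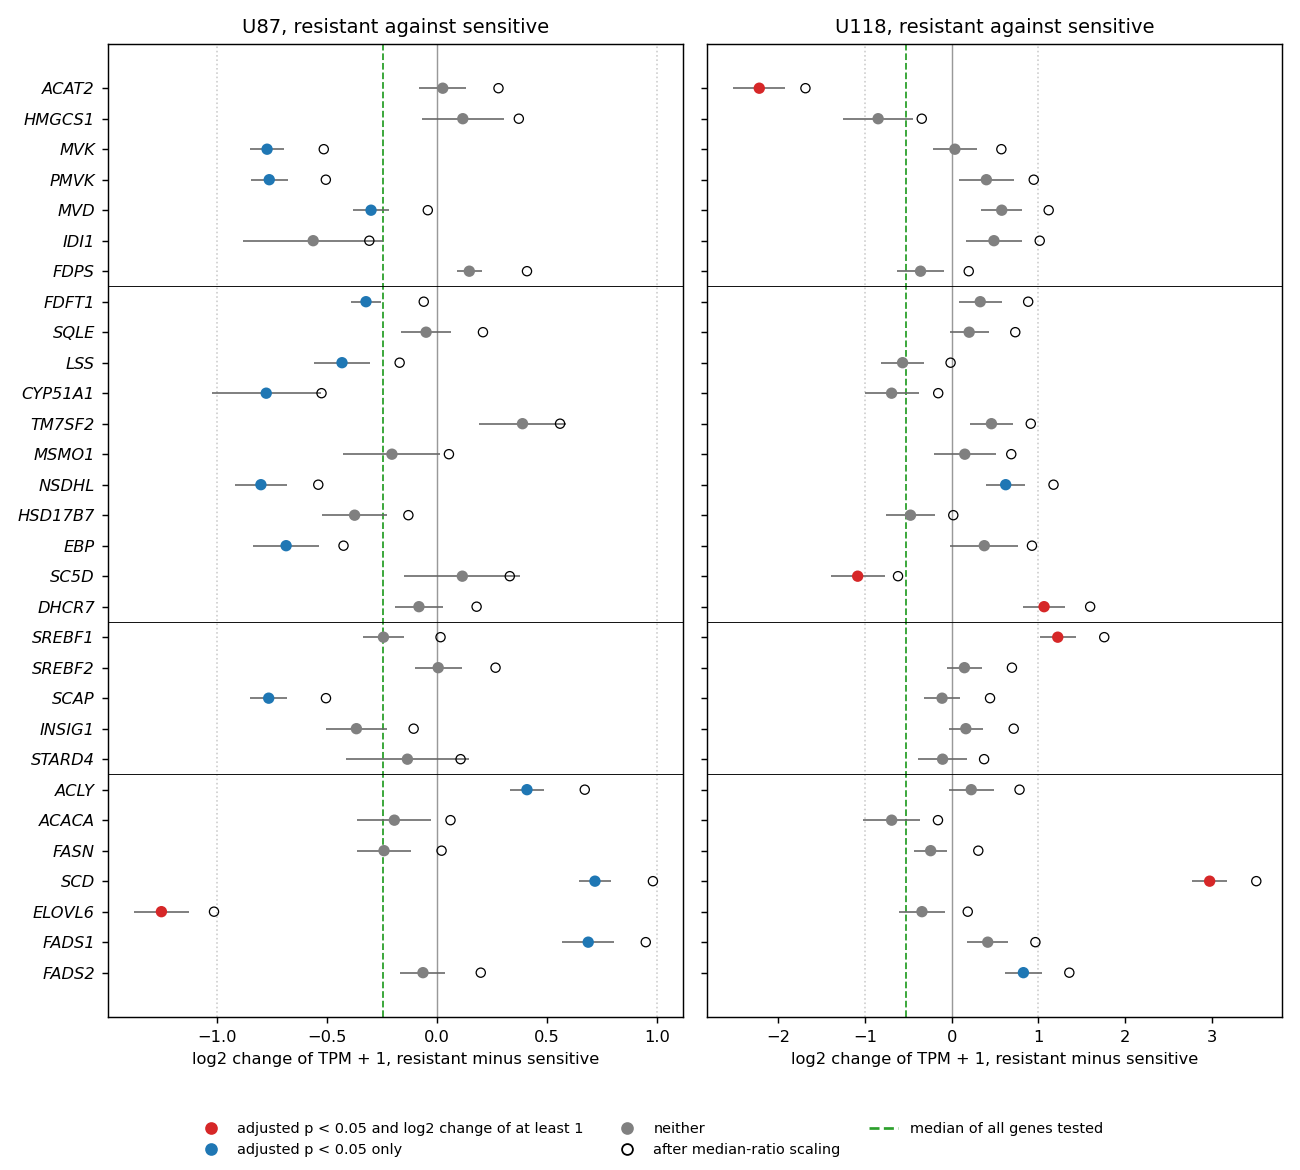
Log2 change of TPM + 1 (resistant minus sensitive, horizontal axis) of each member in U87 and in U118, filled points with SE as bars (n = 3 against 3), colours marking which tests were passed; open circles show the change after median-ratio scaling and the dashed line the median of all genes tested. ELOVL6 is the single called member in U87, and most U118 members lie to the right of the dashed line at -0.52.

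The mevalonate arm kept no common direction in either line. By the sign of the log2 change on TPM, the arm had 4 of 7 genes below 0 in U87, against 3 of 7 in U118. Its 7 members had a median log2 change of -0.30 in U87, beside -0.24 over all genes, and of 0.04 in U118, beside -0.52. In U87, 3 of the 7 fell by adjusted p, where 29.7% of all genes did. Beside that share, 3 of 7 is a count too small to be read as a difference. MVK, the kinase that phosphorylates mevalonate, went from 57.6 to 58.9 TPM in sensitive to 32.8 to 34.3 TPM in resistant libraries (log2 change -0.77, SE 0.08, adjusted p = 0.000467). PMVK, which adds the next phosphate, went from 51.2 to 54.2 to between 29.2 and 31.9 TPM (-0.76, SE 0.08, adjusted p = 0.000682). MVD, which decarboxylates the product, went from 50.8 to 54.4 to between 40.7 and 44.3 TPM (-0.30, SE 0.08, adjusted p = 0.0257), a call by adjusted p that was lost without U87 sensitive replicate 1 or 3 or U87 resistant replicate 1 or 3. After median-ratio scaling MVK and PMVK still passed (adjusted p = 0.0153 and 0.0193), MVD did not (0.842), and FDPS, the farnesyl diphosphate synthase, passed as higher (log2 change 0.41, adjusted p = 0.0231). MVK shares exon sequence with MMAB on the opposite strand, whose mean went from 94.6 to 34.2 TPM in U87, and whether the counting used strand was not stated. HMGCS1, which condenses acetoacetyl-CoA with acetyl-CoA, and IDI1, the isopentenyl diphosphate isomerase, did not pass in U87. U87 sensitive replicate 2 held their highest values there, 34.7 and 58.5 TPM against 20.6 to 29.2 TPM in its fellow replicates of both genes.

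ACAT2 was the member that fell furthest in U118. It encodes the cytosolic thiolase that makes acetoacetyl-CoA at the head of the pathway, on chromosome 6 (159760328 to 159779055, plus strand, GRCh38). Its level was 67.6, 66.3 and 51.2 TPM in the U118 sensitive libraries and 19.9, 9.08 and 10.3 TPM in the resistant ones. The groups did not overlap, and the sensitive mean was 4.71-fold above the resistant mean (log2 change -2.22, SE 0.30, adjusted p = 0.000388). In U87 the level was 24.3, 23.8 and 28.5 TPM in sensitive and 26.5, 25.4 and 25.7 TPM in resistant libraries, which overlapped (log2 change 0.03, SE 0.11, adjusted p = 0.87). Exons of ACAT2 overlap TCP1 and SOD2 on the opposite strand, so its level is uncertain. TCP1 in U118 had means of 236 and 175 TPM (log2 change -0.53, adjusted p = 0.183), and SOD2 was not read. In U118, no other mevalonate arm gene passed on TPM. MVD lay at 18.3 to 28.98 TPM in sensitive and 29.8 to 37.3 TPM in resistant libraries (log2 change 0.58, SE 0.24, adjusted p = 0.0682). IDI1 lay at 14.0 to 18.5 TPM in sensitive and 16.0 to 39.2 TPM in resistant libraries, which overlapped, the highest being U118 resistant replicate 1. After median-ratio scaling MVD and IDI1 were called higher (log2 change 1.12 and 1.02, adjusted p = 0.0142 and 0.00421).

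In the sterol arm, 5 of 11 genes fell by adjusted p in U87 and 0 rose, where 29.7% of all genes fell and 9.43% rose. The arm's median log2 change was -0.32, close to the -0.24 over all genes, and after median-ratio scaling 2 of the 5 (NSDHL and EBP) still passed. FDFT1, the squalene synthase, went from a mean of 271 ± 16.9 to 216 ± 6.87 TPM (SD, n = 3 each). LSS, the lanosterol synthase that closes the sterol rings, went from 198 ± 30.5 to 145 ± 12.1 TPM. CYP51A1, which removes a methyl group of lanosterol, went from 26.9 ± 10.6 to 14.6 ± 1.01 TPM, and EBP, the sterol isomerase, from 120 ± 23.6 to 73.1 ± 3.04 TPM. Their log2 changes were -0.32, -0.43, -0.78 and -0.69 (adjusted p = 0.0109, 0.0343, 0.0448 and 0.0109). LSS no longer passed without U87 sensitive replicate 1 or 3 or resistant replicate 2 or 3, nor CYP51A1 without U87 sensitive replicate 3 or any 1 of the resistant replicates. The spread of CYP51A1 came from U87 sensitive replicate 2 at 39.1 TPM, where the other two were 19.9 and 21.6 TPM. Without that library its log2 change was -0.48. CYP51A1 shares exons with other annotated genes, same-strand transcripts among them, and its value is uncertain in that respect. In U118 none of these 4 genes passed on TPM. FDFT1 had means of 67.4 ± 3.37 and 87.5 ± 25.6 TPM there, LSS of 94.5 ± 24.9 and 62.1 ± 6.17 TPM, CYP51A1 of 35.4 ± 3.29 and 23.0 ± 11.1 TPM and EBP of 51.7 ± 27.5 and 62.5 ± 16.7 TPM (adjusted p = 0.282, 0.0808, 0.0901 and 0.44).

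NSDHL, a dehydrogenase that acts in the removal of the sterol methyl groups, moved in opposite directions in the lines. In U87 it was 134, 108 and 143 TPM in sensitive and 70.8, 78.5 and 69.4 TPM in resistant libraries. The groups did not overlap (log2 change -0.80, SE 0.12, adjusted p = 0.00231). In U118 it was 48.7, 62.1 and 52.6 TPM in sensitive and 104, 70.2 and 81.3 TPM in resistant libraries. Here every resistant library was the higher (log2 change 0.62, SE 0.22, adjusted p = 0.0424), by more after median-ratio scaling (1.18, adjusted p = 0.000929). In U87 the change on that scale was -0.54 (adjusted p = 0.0416). The call in U118 by adjusted p was lost without any 1 of the U118 sensitive replicates and without U118 resistant replicate 3 (adjusted p 0.039 to 0.17 over the 6 fits).

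DHCR7, the reductase of the last step toward cholesterol from 7-dehydrocholesterol, rose in U118. Its level there was 12.3, 15.3 and 11.9 TPM in sensitive and 23.1, 36.9 and 27.2 TPM in resistant libraries, a 2.21-fold ratio with no overlap (log2 change 1.07, SE 0.25, adjusted p = 0.00661). Without U118 resistant replicate 2 the log2 change was 0.89, under the fold threshold. In U87 it was 211, 167 and 180 TPM in sensitive and 190, 159 and 176 TPM in resistant libraries, which overlapped (-0.08, SE 0.11, adjusted p = 0.593). All U118 libraries thus lay below all U87 libraries for this gene. SC5D, the desaturase that supplies 7-dehydrocholesterol, fell in U118, from 7.20, 8.35 and 12.9 TPM to 5.74, 2.63 and 3.56 TPM (log2 change -1.08, SE 0.31, adjusted p = 0.018). It was -0.62 after median-ratio scaling, where it did not pass (adjusted p = 0.0615), and its adjusted p rose above 0.05 without U118 sensitive replicate 3, resistant replicate 2 or resistant replicate 3. In U87 SC5D was 2.64, 6.19 and 3.26 TPM in sensitive and 3.84, 4.29 and 4.54 TPM in resistant libraries, with no difference beyond their spread (adjusted p = 0.759).

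The other sterol arm genes did not pass in either line on TPM. SQLE, the squalene epoxidase and a rate-controlling step of the arm, had means of 50.2 ± 6.45 and 48.2 ± 1.79 TPM in U87 and of 18.2 ± 1.64 and 21.3 ± 4.12 TPM in U118 (SD, n = 3 each). MSMO1, a sterol methyl oxidase, was highest in U87 sensitive replicate 2 (81.6 TPM) and in U118 resistant replicate 1 (50.8 TPM), with the other libraries at 44.7 to 55.7 TPM in U87 and 19.8 to 30.02 TPM in U118. TM7SF2, a sterol reductase, stayed between 1.33 and 6.67 TPM, and it shares exons with VPS51 on the same strand. HSD17B7, a sterol ketoreductase with pseudogenes at up to 1.40 TPM, stayed between 4.91 and 15.7 TPM. After median-ratio scaling, FDFT1, SQLE, TM7SF2 and MSMO1 passed the adjusted p in U118 as higher, with log2 changes of 0.69 to 0.91. Summed over the 18 sterol enzymes, the level was 1469 to 1515 TPM in U87 sensitive and 1175 to 1212 TPM in U87 resistant libraries, with no overlap, and 575 to 763 TPM in U118 sensitive and 559 to 825 TPM in U118 resistant libraries, which overlapped. These sums carry the shift over all genes. Relative to the median of all genes, the median log2 change of the 18 was -0.07 in U87 and 0.70 in U118. After median-ratio scaling these were -0.04 and 0.73. Of the 18, 13 were lower in U87 on TPM, and 10 after median-ratio scaling. In U118, 11 and 13 were higher on these scales.

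**Figure D3:**
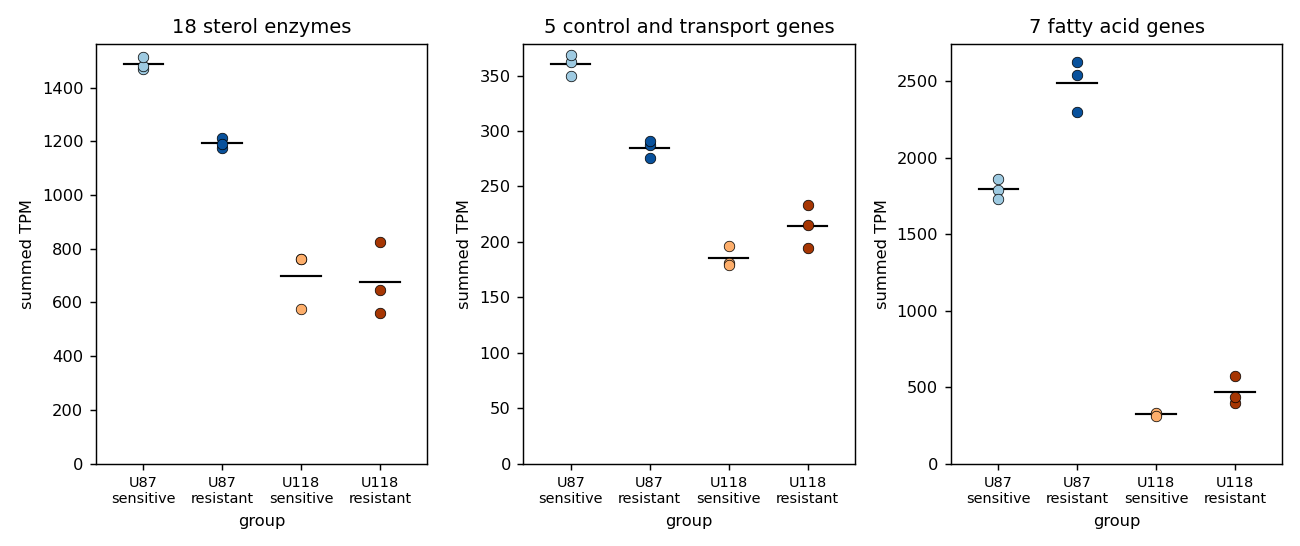
Summed TPM per library (vertical axes from 0) of the 18 sterol enzymes, the 5 control and transport genes and the 7 fatty acid genes in the 4 groups; points are libraries and bars their means. In U87 the sterol enzymes lie at 1469 to 1515 TPM in sensitive and 1175 to 1212 TPM in resistant libraries, and the fatty acid genes at 1729 to 1858 and 2296 to 2628 TPM. The sums are without median-ratio scaling and carry the shift over all genes.

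Among the control genes, SREBF1 rose in U118. SREBF1 encodes the SREBP1 factors, of which the SREBP1c form drives fatty acid genes. Its level in U118 was 16.0, 16.8 and 14.5 TPM in sensitive and 34.1, 41.5 and 38.9 TPM in resistant libraries. The groups lay apart, at a 2.43-fold ratio (log2 change 1.23, SE 0.21, adjusted p = 0.00126). In U87 it was 79.4, 65.0 and 72.6 TPM in sensitive and 59.8, 62.8 and 59.6 TPM in resistant libraries (log2 change -0.24, SE 0.09, adjusted p = 0.0801; 0.02 after median-ratio scaling). Values are gene totals, so the SREBP1a and SREBP1c transcripts were not separated. Exons of SREBF1 overlap RAI1 on the opposite strand. RAI1 had means of 20.9 and 10.6 TPM in U87 sensitive and resistant libraries (log2 change -0.92, limma, adjusted p = 0.00104). In U118 its means were 21.0 and 16.2 TPM (-0.37, adjusted p = 0.207).

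SREBF2, which encodes the factor of the sterol branch and whose promoter is printed above, had levels of 85.3 to 93.4 and 78.5 to 100.4 TPM in U87 sensitive and resistant libraries and of 35.2 to 41.5 and 36.1 to 44.9 TPM in U118. These ranges overlapped in both lines (log2 change 0.01, SE 0.11, and 0.15, SE 0.20). SCAP, the escort of the SREBPs, fell in U87 from 98.4 to 115 TPM to between 58.9 and 63.0 TPM (log2 change -0.77, SE 0.09, adjusted p = 0.000746; -0.51 after median-ratio scaling, adjusted p = 0.0232). In U118 SCAP was at 62.0 to 71.9 and 51.2 to 70.5 TPM, which overlapped. INSIG1, the sterol-sensing retention protein and itself an SREBP target, had means of 81.3 ± 15.9 and 62.0 ± 1.03 TPM in U87 (adjusted p = 0.0736) and of 58.0 ± 1.499 and 65.4 ± 7.01 TPM in U118 (adjusted p = 0.495; 0.029 after median-ratio scaling, as higher). STARD4, a carrier that moves sterol between membranes, was at 4.56 to 16.9 TPM over all 12 libraries and passed in neither line.

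The fatty acid branch held both the largest rise and the single called fall in U87. Its summed level was 1729 to 1858 TPM in U87 sensitive and 2296 to 2628 TPM in U87 resistant libraries, and 312 to 332 and 395 to 573 TPM in U118. In both lines the groups did not overlap, with SCD included. Without SCD the sums were 854 to 911 and 916 to 1079 TPM in U87, which still did not overlap, and 297 to 315 and 281 to 441 TPM in U118, which did, the highest being U118 resistant replicate 1. ELOVL6, which elongates palmitate to stearate, was 16.1, 17.4 and 15.4 TPM in U87 sensitive and 6.14, 6.78 and 5.86 TPM in U87 resistant libraries. The sensitive mean was 2.61-fold above the resistant one (log2 change -1.25, SE 0.13, adjusted p = 0.000503; -1.01 after median-ratio scaling, adjusted p = 0.00115). In U118 it was 22.7, 12.4 and 21.0 TPM in sensitive and 14.8, 13.1 and 14.4 TPM in resistant libraries, which overlapped (log2 change -0.34, SE 0.27, adjusted p = 0.306).

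ACLY, which splits citrate into the acetyl-CoA that both branches use, rose in U87 from 266 to 280 TPM to between 331 and 393 TPM (log2 change 0.41, SE 0.08, adjusted p = 0.00642). FADS1, a desaturase of polyunsaturated fatty acids, rose in U87 from 85.8 to 115 TPM to between 156 and 172 TPM (0.69, SE 0.12, adjusted p = 0.00421). Both passed after median-ratio scaling as well (0.67 and 0.95, adjusted p = 0.00381 and 0.000407). In U118 ACLY had means of 148 ± 19.1 and 178 ± 58.7 TPM and FADS1 of 47.5 ± 2.85 and 65.2 ± 17.9 TPM, and neither passed on TPM (adjusted p = 0.485 and 0.165), while both passed as higher after median-ratio scaling (0.00719 and 0.00145). FADS2, the neighbouring desaturase, rose in U118 by adjusted p, from 11.9 to 15.0 TPM to between 22.1 and 27.3 TPM (log2 change 0.83, SE 0.22, adjusted p = 0.0118), and was called there after median-ratio scaling (1.36). Its adjusted p rose above 0.05 without U118 sensitive replicate 1 or 2 or resistant replicate 3. In U87 FADS2 was at 289 to 322 and 257 to 331 TPM. FADS1 and FADS2 share exon sequence on opposite strands and FADS2 shares some with FEN1, so reads may have been split between them.

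ACACA and FASN, which carboxylate acetyl-CoA and build palmitate, passed in neither line. FASN had means of 148 ± 11.1 and 125 ± 20.1 TPM in U87 and of 49.3 ± 2.54 and 41.6 ± 2.29 TPM in U118 (log2 change -0.24 in both, adjusted p = 0.166 and 0.309; 0.02 and 0.31 after median-ratio scaling). ACACA was at 24.6 to 40.7 TPM in all U87 libraries. In U118 its resistant libraries were 32.1, 14.1 and 14.2 TPM, so replicate 1 matched the sensitive range of 26.98 to 35.7 TPM and the other two did not. HMGCS1 and CYP51A1 were split alike, with 18.2, 6.08 and 5.34 TPM and 35.7, 15.2 and 17.99 TPM in the resistant libraries. Without U118 resistant replicate 1 these 3 genes were called lower in U118.

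**Figure D4:**
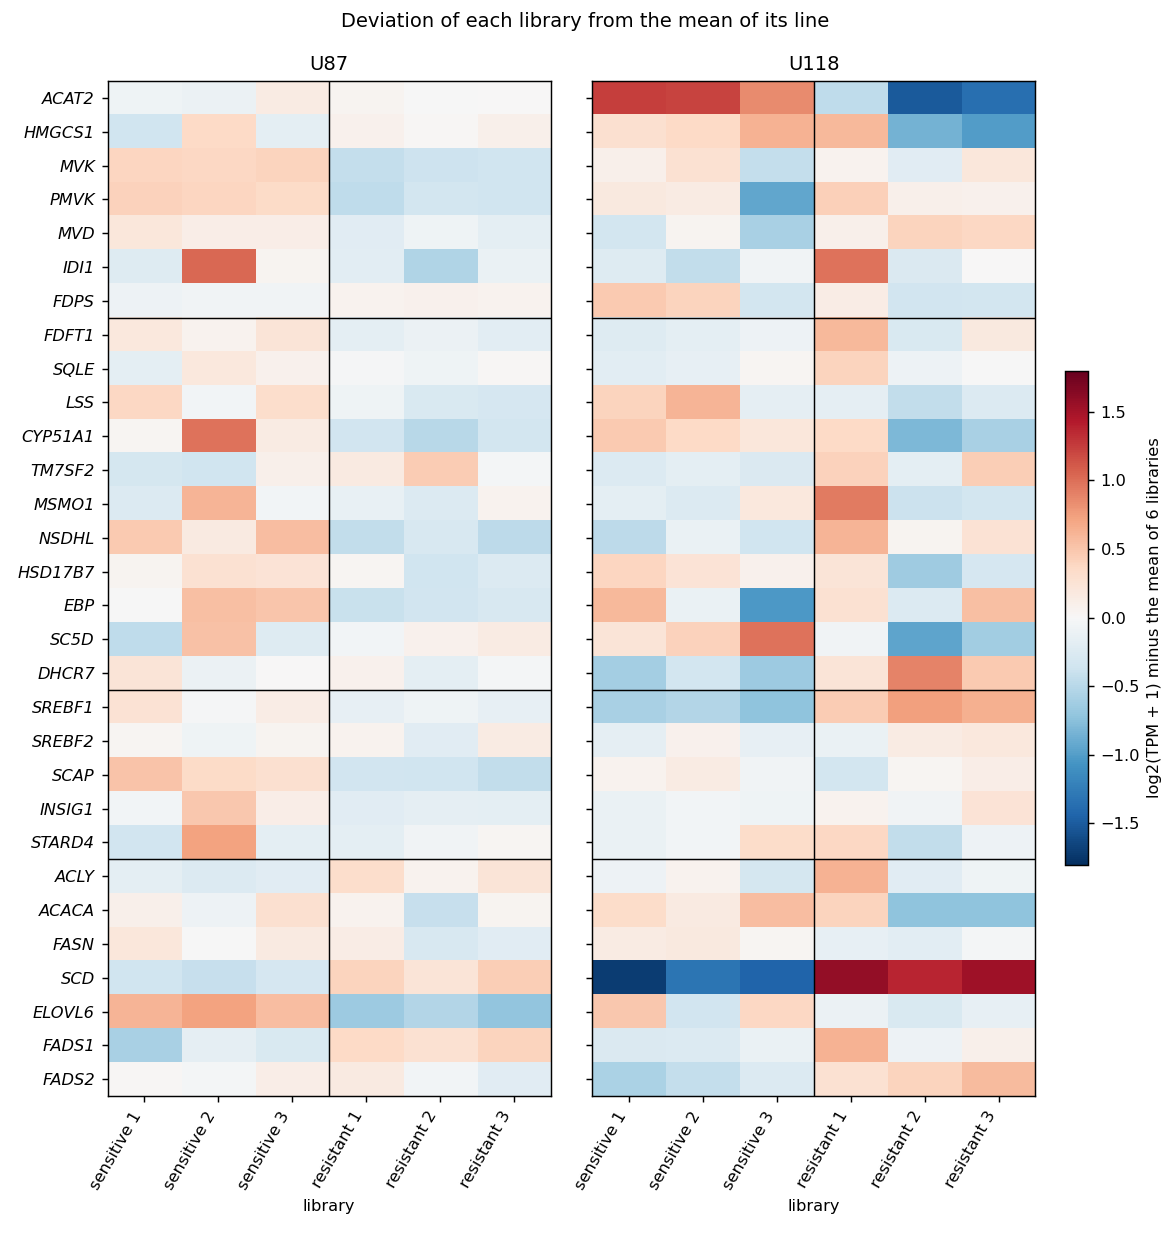
Log2(TPM + 1) of each member (rows) in each library (columns) minus the mean of the 6 libraries of its line, from blue (below) to red (above). IDI1, CYP51A1, MSMO1 and STARD4 stand out in U87 sensitive replicate 2, and IDI1 and MSMO1 in U118 resistant replicate 1, while SCD separates the groups in every library of both lines.

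The change from sensitive to resistant was compared between the lines in a fit over all 12 libraries, with the lines' tables normalized separately. It was higher in U118 than in U87 for 5 members (SCD, SREBF1, NSDHL, PMVK and DHCR7) and lower for 2 (ACAT2 and SC5D), at an adjusted p under 0.05 and a log2 difference of at least 1. Of the 16382 genes tested, 12% were higher and 18.5% lower by the same rule. After median-ratio scaling it was higher for 11 members and lower for 1, where 15.7% of genes were higher and 14.6% lower. SCD differed by 2.26 (SE 0.19, adjusted p = 1.34e-06) and SREBF1 by 1.47 (SE 0.19, adjusted p = 7.11e-05). NSDHL differed by 1.43 (SE 0.24, adjusted p = 0.000548) and ACAT2 by -2.25 (SE 0.34, adjusted p = 0.000209). PMVK differed by 1.16 (SE 0.35, adjusted p = 0.0207), with U118 sensitive replicate 3 at 20.6 TPM against 44.8 and 45.8 TPM in its fellow libraries, without which it was 0.80. SC5D differed by -1.20, and its adjusted p stayed under 0.05 only without U87 sensitive replicate 2, U118 sensitive replicate 1 or U118 resistant replicate 1, of 12 libraries left out in turn. For ELOVL6 the difference was 0.91 (SE 0.29, adjusted p = 0.0282), under the fold threshold, and it lost the adjusted p in 5 of the 12 fits that left out a library.

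Genes around the pathway were read from 5 lists. The shares of all genes called, given above, were 3.03% (higher) and 7.79% (lower) for U87, and for U118 they were 8.64% (higher) and 26.6% (lower). Of 8 genes of SREBP processing and sterol sensing, 0 were called in U87 (by adjusted p MBTPS2 and SPRING1 fell) and 1 in U118: RNF139, a sterol-responsive ubiquitin ligase, at 28.9 to 36.2 TPM in sensitive and 26.8, 9.18 and 9.54 TPM in resistant libraries (log2 change -1.18, SE 0.38, adjusted p = 0.0282). After median-ratio scaling RNF139 did not pass (adjusted p = 0.0586), and its call on TPM was lost in 5 of the 6 fits that left out a library, all but that without U118 resistant replicate 1. The median log2 changes of the list were -0.34 in U87 and -0.35 in U118.

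Of 15 genes of cholesterol export, uptake and storage, 12 were tested in each line. In U87, 1 of the 12 was called higher and 1 lower, and in U118, 3 and 2, where 8.64% of all genes were called higher and 26.6% lower. The list's median log2 change was 0.27 in U87 and 0.35 in U118, beside -0.24 and -0.52 over all genes. ABCA1, which exports cholesterol to lipoprotein particles and is a target of the sterol-sensing LXR receptors, was 3.19, 3.16 and 3.89 TPM in U118 sensitive and 17.97, 14.2 and 15.2 TPM in U118 resistant libraries, a 4.63-fold ratio (log2 change 1.93, SE 0.23, adjusted p = 0.000166). In U87 ABCA1 rose from 3.59 to 8.26 TPM to between 9.78 and 11.1 TPM, short of the fold threshold (0.85, SE 0.26, adjusted p = 0.0391), and it no longer passed in 5 of the 6 fits that left out a library, all but that without U87 sensitive replicate 2. CH25H, which makes 25-hydroxycholesterol, an inhibitor of SREBP processing, was called higher in both lines: 0.700 to 0.914 against 2.94 to 3.77 TPM in U87 and 0.923 to 1.46 against 4.02 to 5.61 TPM in U118 (log2 change 1.23 and 1.41, adjusted p = 0.000894 and 0.000923). In U87 CH25H met the filter on low values only through the resistant libraries, where it was high. Its call there was thus tied to its direction and is no independent support. SOAT1, which esterifies cholesterol for storage, was called lower in both lines, from 49.4 to 97.4 to between 21.5 and 23.9 TPM in U87 and from 42.8 to 48.8 to between 9.03 and 20.9 TPM in U118 (-1.51 and -1.78, adjusted p = 0.00275 and 0.00131). The other gene of the list called lower in U118 was MYLIP (log2 change -1.29), whose log2 change in U87 was 0.13. SCARB1, a lipoprotein receptor, was called higher in U118 at a mean of 14.9 ± 1.85 against 50.6 ± 3.91 TPM, while in U87 it fell from 54.5 ± 1.51 to 27.5 ± 1.84 TPM (adjusted p = 0.000195 and 0.000359). ABCA1, CH25H, SOAT1 and SCARB1 kept their directions and passed after median-ratio scaling.

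Of 24 other fatty acid genes, 20 passed the filter in U87, and U118 kept 21. In U87, 0 were called, with 2 higher and 6 lower by adjusted p. In U118, 2 of 21 were called higher and 5 lower, where 8.64% and 26.6% of all genes were. Of those called lower, SCD5 and ME1 met the filter on low values only through the sensitive libraries. Their calls were thus tied to their direction. The list's median log2 change was -0.25 in U87 and -0.37 in U118. SCD5, the other human stearoyl-CoA desaturase, was at 6.12, 7.07 and 7.47 TPM in U118 sensitive libraries and listed at 0 in all 3 resistant ones, opposite to SCD, and at 17.8 to 22.1 TPM in all U87 libraries. ME1, the malic enzyme that supplies NADPH for fatty acid synthesis, was at 9.29, 8.51 and 9.13 TPM in U118 sensitive libraries, listed at 0 in all 3 resistant ones, and at most 0.196 TPM in U87. ELOVL7, an elongase, was at 1.08, 1.32 and 1.45 TPM in U118 sensitive and 11.7, 6.34 and 6.60 TPM in resistant libraries (log2 change 1.97, SE 0.27, adjusted p = 0.00038).

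Of 11 isoprenoid users, 1 was called in each line, lower, where 7.79% of all genes in U87 and 26.6% in U118 were. The list's median log2 change was -0.14 in U87 and -0.42 in U118. COQ2, of coenzyme Q synthesis, had means of 36.7 ± 7.35 and 12.5 ± 1.78 TPM in U87 (log2 change -1.47, adjusted p = 0.00112), and GGPS1, the geranylgeranyl diphosphate synthase, of 20.7 ± 0.844 and 9.05 ± 1.91 TPM in U118 (-1.13, adjusted p = 0.00398; -0.96 without U118 resistant replicate 3). Of 17 genes of mitochondrial fatty acid oxidation, 1 was called in U87, lower. U118 had 2 of 17 called higher and 4 called lower, the latter near the 26.6% of all genes. SLC25A20, the carnitine carrier, had means of 23.4 ± 3.87 and 6.18 ± 1.60 TPM in U87 (-1.78, adjusted p = 0.000944). In U118 ACADM, the medium-chain dehydrogenase, went from 33.3 to 46.7 TPM in sensitive to between 9.42 and 16.0 TPM in resistant libraries (-1.67, adjusted p = 0.000828), and ECI2, an isomerase, from 92.6 ± 13.3 to 32.3 ± 16.6 TPM (-1.59, adjusted p = 0.00357). ACAA2, a thiolase of the same organelle, was at 74.2, 58.6 and 29.5 TPM in sensitive and 36.5, 10.1 and 16.2 TPM in resistant libraries, which overlapped (-1.42, adjusted p = 0.0316; 0.0774 after median-ratio scaling). Its call was lost without U118 sensitive replicate 1 or 2 or resistant replicate 2 or 3. The median log2 change of the list was -0.30 in U87 and -0.61 in U118, beside -0.24 and -0.52 over all genes.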

How the data were processed

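Messenger RNA libraries (VAHTS mRNA-seq V2 kit, total RNA by Trizol) of U87 and U118 cells, 3 per group, were given groups from the sample labels. The authors deposited TPM values per gene, 1 table per line, with 58174 Ensembl identifiers each, of which 57836 were in GENCODE 29 (GRCh38). The submitters' processing notes name FastQC 0.11.2, Trimmomatic 0.36, HISAT2 2.0, bedtools 2.26.0 and GRCh38. The tool that made TPM, the annotation and the use of strand are not given in the sources used here. TPM keep no read counts, so depth is unknown, and no counting interval or floor could be given. 0 columns were left unmapped.

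Within each line limma 3.58.1 (R 4.3.3; lmFit, eBayes with trend) was fitted to log2(TPM + 1), which understates changes of low genes, for genes of at least 1 TPM in at least 3 libraries. Log2 changes are on that scale, and ratios are of mean TPM. Genes were called at a log2 change of at least 1 with a Benjamini-Hochberg adjusted p under 0.05. The difference between the lines was the interaction over 12 libraries. An exact permutation test of 3 against 3 cannot go below p = 0.1, so none was used. The fits were tested on simulated data. Alternatives were median-ratio scaling, a pseudocount of 0.1, no filter, a stricter filter (10 TPM on average), TPM without mitochondrially encoded genes, a replicate block, eBayes without trend, no fold threshold, and leaving out each library. Members called in a line, or with an adjusted p under 0.05 in both, were given library by library. Up to 3 called genes of each other list and line, those of the largest change, were named, and MYLIP was added. The lists were SREBP processing and sterol sensing, cholesterol export, uptake and storage, other fatty acid genes, isoprenoid users, and fatty acid oxidation. Sequences came from RefSeq (GRCh38.p14). Members and lists were chosen with earlier results of these data known.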

Additional observations from a re-analysis of the deposited data

Results flagged for a closer look

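The members and surrounding genes below changed differently in the 2 lines by the interaction test (limma, adjusted p under 0.05 and a log2 difference of at least 1, U118 change minus U87 change, 3 libraries a group). Among the members the differences were 2.26 for SCD, 1.47 for SREBF1, 1.43 for NSDHL, 1.16 for PMVK and 1.15 for DHCR7, and -2.25 for ACAT2 and -1.20 for SC5D. SCD rose in both lines, and NSDHL rose in U118 and fell in U87. Leaving out single libraries moved the difference of SCD between 2.15 and 2.34 and that of ACAT2 between -2.57 and -2.04. For SC5D the adjusted p rose to as much as 0.106 when a library was left out.

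Among the surrounding genes the differences were 2.67 for SCARB1 (adjusted p = 4.12e-07), which rose in U118 and fell in U87, 2.12 for SLC25A20, 1.83 for ELOVL7 and 1.08 for ABCA1. They were -1.39 for RNF139, -1.22 for ACADM and -2.97 for SCD5. SCD5 was listed at 0 in the U118 resistant libraries, so its value depends on the pseudocount and is no bound. Of the 12 fits that left out a library, 9 lost the call for RNF139 (adjusted p up to 0.0763), 8 for ACADM (up to 0.0793) and 6 for ABCA1 (up to 0.0546, with the difference down to 0.80 without U87 sensitive replicate 2). In all, 14 surrounding genes had a called difference. The others were NPC1 (-1.27), MYLIP (-1.42), ACADS (1.48), CPT1C (1.29), ACACB (1.16), ETFB (1.13) and ME1. ME1 was listed at 0 in U118 resistant libraries, did not pass the filter in U87 and was tested only through the U118 sensitive libraries. ACACB lost the call without U87 resistant replicate 2 or U118 resistant replicate 1, and ETFB in 8 of the 12 fits, falling to 0.73 without U118 sensitive replicate 3.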

How the results depend on the processing

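The 20 results on single members kept their direction in all 259 alternative values, and 40 of these no longer passed. For the 7 differences between the lines this was 12 of 132, with 0 reversed. ELOVL6 in U87, ACAT2, SREBF1 and SCD in U118, and the differences of NSDHL, SREBF1, SCD and ACAT2 were called in every alternative run. Median-ratio scaling changed the sign of 8 of the 30 members in U87 and of 6 in U118, none of them called. It gave 4 sterol enzymes (1 on TPM) and 2 fatty acid genes (1 on TPM) called higher and 1 sterol enzyme (2 on TPM) called lower in U118, and differences between the lines for 11 members higher (5 on TPM) and 1 lower (2 on TPM). U118 sterol enzymes called lower were also 1 with no filter, with a mean of at least 10 TPM and without mitochondrially encoded genes, a setting that called 2 fatty acid genes higher. Differences called lower were also 1 with a pseudocount of 0.1, no filter, a mean of at least 10 TPM and the replicate block. The causes were not tested. Without a fold threshold, U87 had 8 sterol enzymes and 1 control gene lower and 3 fatty acid genes higher, and U118 had 2 sterol enzymes and 2 fatty acid genes higher.

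With no filter the median of all genes included undetected ones, and branch medians relative to it were -0.27, -0.20 and -0.025 in U87 and 0.25, 0.22 and 0.30 in U118 (sterol, control, fatty acid), against -0.07, 0.00081, 0.18, 0.70, 0.67 and 0.75 with it. Leaving out 1 library gave a U87 fatty acid median of 0.060 (without sensitive replicate 2) to 0.29 (without resistant replicate 3) and a U118 control median of 0.53 to 0.93 (without resistant replicate 1). In U118, 0 to 1 sterol enzymes were called higher (0 without resistant replicate 2), 1 to 4 sterol enzymes lower (1 without sensitive replicate 3, resistant replicate 2 or 3, and 4 without resistant replicate 1) and 0 to 1 fatty acid genes lower (1 without resistant replicate 1). Differences called lower were 1 to 3 (3 without U118 resistant replicate 1). The labels do not say that a replicate number marks a shared source. Deviations of same-numbered libraries correlated at -0.067 to 0.011 in U87 and 0.051 to 0.139 in U118. In U118 each library correlated best with its own number, and in U87 none did. With so few libraries and such small values, this cannot show whether they were paired. With the replicate block CYP51A1 and MVD in U87, NSDHL in U118 and the difference of SC5D no longer passed the adjusted p. TPM keep no depth, so its limit on low genes is unknown.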
